A study of Mus musculus with 2 samples.

Results

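The microRNA genes Mir322, Mir503, Mir351, Mir542 and Mir450b lie together on the minus strand of mouse chromosome X. Their levels were measured by small RNA sequencing in the hindbrain, the part of the embryonic brain that forms the cerebellum, pons and medulla. The 5 genes were found by Ensembl identifier in GENCODE M21, out of 1973 gene rows. The tissue came from healthy, untreated B6NCrl embryos of both sexes at embryonic day 15.5. There is 1 group with 2 biological replicates: replicate 1 pooled tissue from 78 embryos and replicate 2 from 62. No other tissue, age or treatment was sampled, so the data give the level of each gene and its spread between the pools.

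A microRNA is cut from a hairpin in a longer primary transcript by Drosha and then Dicer, and 1 strand of the resulting duplex is loaded into an Argonaute protein. Its seed, bases 2 to 8 from the 5′ end, pairs with target messenger RNAs and lowers their output, so microRNAs with the same seed can act on overlapping targets. miR-322, the mouse counterpart of human miR-424, and miR-503 are known from cultured muscle precursors, where they accumulate as cells leave the cell cycle and repress the phosphatase Cdc25A. miR-542-3p is known to repress survivin, an inhibitor of apoptosis needed for cell division, in human cells.

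The sequences show which members have relatives elsewhere in the genome. The mature sequences of the 5 members are given first, from RefSeq on GRCm38.p6, 5′ to 3′, with the seed in capitals. RefSeq held mature sequences for 5 of 5 members, from both arms of each hairpin.
miR-322-5p: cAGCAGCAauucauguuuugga
miR-322-3p: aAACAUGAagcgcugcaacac
miR-503-5p: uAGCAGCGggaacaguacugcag
miR-503-3p: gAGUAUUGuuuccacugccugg
miR-351-5p: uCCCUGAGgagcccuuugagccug
miR-351-3p: gGUCAAGAggcgccugggaac
miR-542-5p: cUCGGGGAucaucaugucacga
miR-542-3p: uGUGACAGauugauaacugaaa
miR-450b-5p: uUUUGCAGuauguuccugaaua
miR-450b-3p: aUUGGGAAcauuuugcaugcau

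Among the 5p arms no seed was shared between members. The closest pair was miR-322-5p and miR-503-5p, whose seeds differ by A8G, counted from 1 at the 5′ end of miR-322-5p. Outside the cluster, the seed of miR-322-5p is that of the miR-15 and miR-16 family, which restrains cyclins and other drivers of cell division. The seed of miR-351-5p is that of miR-125, a family that acts in developmental timing and neural differentiation. These relatives are given below with the same marking.
miR-15a-5p: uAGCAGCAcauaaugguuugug
miR-15b-5p: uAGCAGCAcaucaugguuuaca
miR-16-5p: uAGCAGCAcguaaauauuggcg
miR-195a-5p: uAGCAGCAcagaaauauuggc
miR-125a-5p: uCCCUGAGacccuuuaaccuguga
miR-125b-5p: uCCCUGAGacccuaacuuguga

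The cluster spans chrX:53047997-53054349 (mm10, GRCm38), or 6353 bp, and holds 7 annotated microRNA genes in the order Mir322, Mir503, Mir351, Mir542, Mir450-2, Mir450-1 and Mir450b along transcription. Mir322 (ENSMUSG00000065418.1) lies at chrX:53054255-53054349, followed after 200 bp by Mir503 (ENSMUSG00000076122.1) at chrX:53053984-53054054. Mir351 (ENSMUSG00000065503.1) lies at chrX:53053255-53053353. A gap of 3767 bp separates Mir351 from Mir542 (ENSMUSG00000076140.1) at chrX:53049403-53049487. Mir450b (ENSMUSG00000076050.1), the last gene, lies at chrX:53047997-53048078. In RefSeq the hairpins of Mir322, Mir503 and Mir351 lie within the span of the long non-coding gene C430049B03Rik, which reaches from 53053112 to 53057190. GENCODE M21 ends that gene upstream of Mir322, and there no exon or intron of another gene covers a cluster hairpin.

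In the libraries 3937840 reads in replicate 1 and 4839647 in replicate 2 lay on the own strand of a gene, and levels are given as counts per 1000000 of these reads (CPM). Of all reads, 35.4% in replicate 1 and 34.2% in replicate 2 were placed at several loci and counted for no gene. The summed level of 9 measured neural genes was 32302 CPM in replicate 1 and 33540 CPM in replicate 2, led by Mir149. The Mir9, Mir124a and Mir128 genes each share 23 nt or more with their copies. Reads within such a stretch go to no gene, so this sum may be too low and the order of the neural microRNAs is not settled. A gene row counts reads over the whole hairpin, so the 5p and 3p arms were not separated. A library was made from a whole pool, so fewer cells of a type and less RNA per cell cannot be told apart.

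Mir322 was the leading gene of the cluster. Replicate 1 held 32000 of its reads and replicate 2 held 31963. In CPM these are 8126 in replicate 1 and 6604 in replicate 2, or 7365 ± 1076 CPM (SD, n = 2). It stood at rank 24 of 1973 genes in replicate 1 and rank 31 in replicate 2. Replicate 1 was the higher of the pools. Of the 1973 genes, 721 had a read in at least 1 replicate. Reads placed at several loci are not counted, so genes with copies elsewhere may rank too low.

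Mir351, which carries the miR-125 seed, came second with 3734 reads in replicate 1 and 4437 in replicate 2. Its level was 948 CPM in replicate 1 and 917 CPM in replicate 2, or 933 ± 22.2 CPM (SD, n = 2). The pools lay close together for this gene, at ranks 99 and 101.

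Mir542 had 610 reads in replicate 1 and 739 in replicate 2, at 154 ± 1.56 CPM (SD, n = 2). Mir503, the neighbour of Mir322, had 331 and 321 reads, at 84.1 CPM in replicate 1 and 66.3 CPM in replicate 2, or 75.2 ± 12.5 CPM (SD, n = 2). Mir450b, at the far end of the cluster, had 154 and 125 reads, at 39.1 CPM in replicate 1 and 25.8 CPM in replicate 2, or 32.5 ± 9.39 CPM (SD, n = 2). Mir503 and Mir450b were, like Mir322, higher in replicate 1, and Mir542 was nearly level between the pools.

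**Figure D1:**
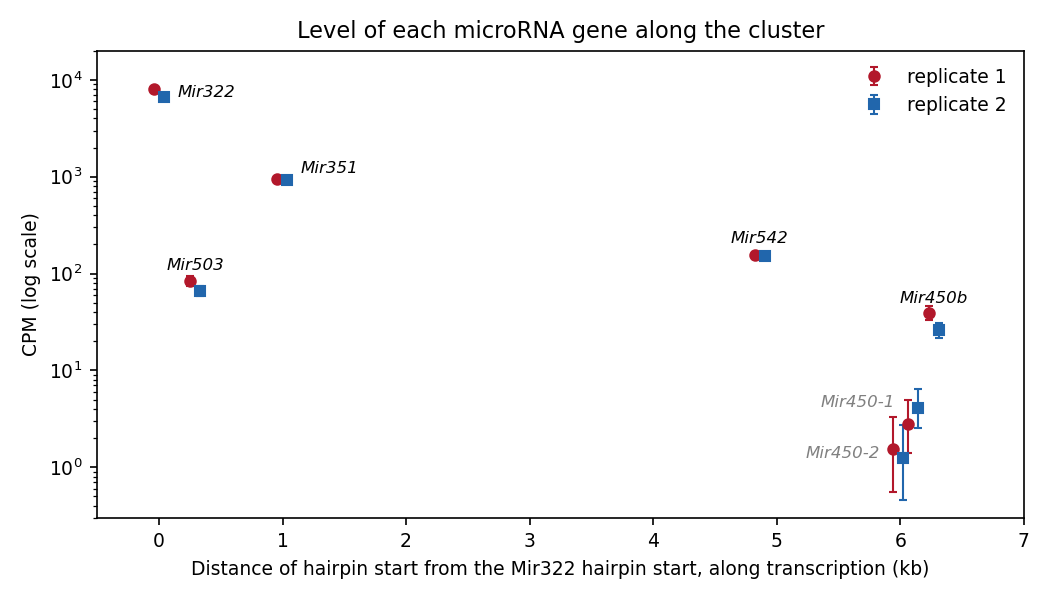
Level in CPM (log axis) of each of the 7 microRNA genes of the cluster against the distance in kb from the Mir322 hairpin start along transcription; circles are replicate 1 and squares replicate 2 (set slightly apart sideways), and bars are exact 95% intervals for counting error. Mir322 stands at 8126 and 6604 CPM, and Mir503, which starts 0.295 kb further on, at 84.1 and 66.3 CPM.

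The levels did not follow the order along the chromosome. From high to low the order was Mir322, Mir351, Mir542, Mir503 and Mir450b in each pool, and no neighbours in this order overlapped over the 2 libraries. Mir322 exceeded Mir351 8.57-fold in replicate 1 and 7.20-fold in replicate 2. Mir351 exceeded Mir542 6.12-fold in replicate 1 and 6.0-fold in replicate 2. The smallest steps were those from Mir542 to Mir503, at 1.84-fold in replicate 1 (exact 95% interval 1.61 to 2.11) and 2.30-fold in replicate 2 (2.02 to 2.63), and from Mir503 to Mir450b, at 2.15-fold and 2.57-fold.

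Mir322 and Mir503, whose hairpins are 200 bp apart, differed 96.7-fold in replicate 1 (exact 95% interval 86.8 to 108.1) and 99.6-fold in replicate 2 (89.2 to 111.5). From the highest member to the lowest, Mir322 over Mir450b, the ratio was 207.8 in replicate 1 and 255.7 in replicate 2. A read covers a mature product and not the whole hairpin, and the hairpins are 71 to 99 nt long. Dividing by hairpin length kept the order, with 7753 CPM per 100 nt for Mir322, 942 for Mir351, 181 for Mir542, 106 for Mir503 and 39.6 for Mir450b. These are ratios of reads. A bias of ligation or amplification between sequences would be shared by both libraries and was not tested.

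Together the 5 members held 0.935% of the gene reads in replicate 1 (exact 95% interval 0.926 to 0.945) and 0.777% in replicate 2 (0.769 to 0.784). Mir322 alone made up 86.9% of the members' reads in replicate 1 and 85.0% in replicate 2. Mir351 made up 10.1% (9.83 to 10.5) in replicate 1 and 11.8% (11.5 to 12.1) in replicate 2. These are parts of 1 total, so a larger share of Mir322 leaves less for the others. In CPM Mir351 was not lower in replicate 1, at 948 against 917. The other members, Mir542, Mir503 and Mir450b, held at most 1.97% each in either replicate. Each interval is binomial on the reads of 1 library, so it covers counting error only. The reads carry no molecular identifiers, so copies made in amplification are counted as reads.

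Between Mir542 and Mir450b lie Mir450-2 and Mir450-1, which encode the same mature miR-450a-5p and are printed here because they limit what can be counted at this end of the cluster. The hairpins, from RefSeq on GRCm38.p6 (minus strand), have in capitals the 25 nt that they share, which include the whole of miR-450a-5p.
Mir450-2 (chrX:53048299-53048367): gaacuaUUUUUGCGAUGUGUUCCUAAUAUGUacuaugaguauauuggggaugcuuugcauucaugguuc
Mir450-1 (chrX:53048154-53048244): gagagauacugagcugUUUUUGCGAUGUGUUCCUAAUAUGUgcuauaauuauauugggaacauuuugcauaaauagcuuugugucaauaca
Mir450b (chrX:53047997-53048078), with miR-450b-5p in capitals: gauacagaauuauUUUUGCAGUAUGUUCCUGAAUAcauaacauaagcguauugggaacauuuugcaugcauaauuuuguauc

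Mir450-2 had 6 reads in each replicate, and Mir450-1 had 11 in replicate 1 and 20 in replicate 2. A read of miR-450a-5p matches both hairpins, and the tables give reads with several placements to no gene, so these counts are not a level of miR-450a-5p. None of the 5 members shares 20 nt or more with another annotated microRNA gene. Mir450b and Mir450-1 share 19 nt on the 3p side, and the miR-450a-5p and miR-450b-5p seeds differ by G7A and A8G, counted from 1 at the 5′ end of miR-450a-5p. No read lay on the opposite strand of any of the 7 genes in either replicate.

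The hairpins differed in other ways than level. Predicted folding energy per nucleotide ranged from -0.377 kcal/mol in Mir351 to -0.530 kcal/mol in Mir503, against a median of -0.434 for the 372 genes that reached 10 reads in both replicates. The most stable hairpin per nucleotide was thus that of Mir503, the fourth in level, and the least stable that of Mir351, the second. Among the printed members' sequences the share of G and C was lowest in miR-542-3p and miR-450b-5p, at 31.8%, and highest in miR-351-3p, at 66.7%.

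In reads assigned to 1 gene, Mir322 stood above each measured gene with its seed. Mir15a, which lies with Mir16-1 on chromosome 14, had 11109 reads in replicate 1 and 13009 in replicate 2, at 2755 ± 94.1 CPM (SD, n = 2). Mir16-1 was at 1581 ± 57.2 CPM, Mir15b at 626 ± 17.2 CPM, Mir195a at 367 ± 45.9 CPM and Mir16-2 at 277 ± 13.1 CPM. Mir322 held 58.7% of the summed level of 10 measured genes with this seed in replicate 1 and 54.6% in replicate 2.

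That share may be too high, since Mir16-1 and Mir16-2 share 23 nt and reads of miR-16-5p can be placed at both. The counts of these 2 genes are thus not a level of miR-16-5p, and its place beside miR-322 is not settled. Mir497, with the same seed, had no gene row under that symbol, so its reads are not in the sum. Mir195b, Mir6342, Mir6353 and Mir6419 had 0 reads in both replicates, which by counting error allows a level of up to 0.762 CPM in replicate 1 and 0.62 in replicate 2. Per 100 nt of hairpin, Mir322 was still the highest, with Mir15a next at 3279 CPM.

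Mir351 stood lowest of the genes with reads and its seed. Mir125a had 26919 reads in replicate 1 and 38729 in replicate 2, at 7419 ± 825 CPM (SD, n = 2). Mir125b-1 was at 1816 ± 32.1 CPM and Mir125b-2 at 1815 ± 24.1 CPM, and these genes share 24 nt, so their levels may be too low. Mir351 held 8.28% of the summed level in replicate 1 and 7.33% in replicate 2, again with both arms counted. Mir6367 and Mir6394, with the same seed, had 0 reads in both replicates. Per 100 nt of hairpin, Mir351 remained the lowest of those with reads.

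**Figure D2:**
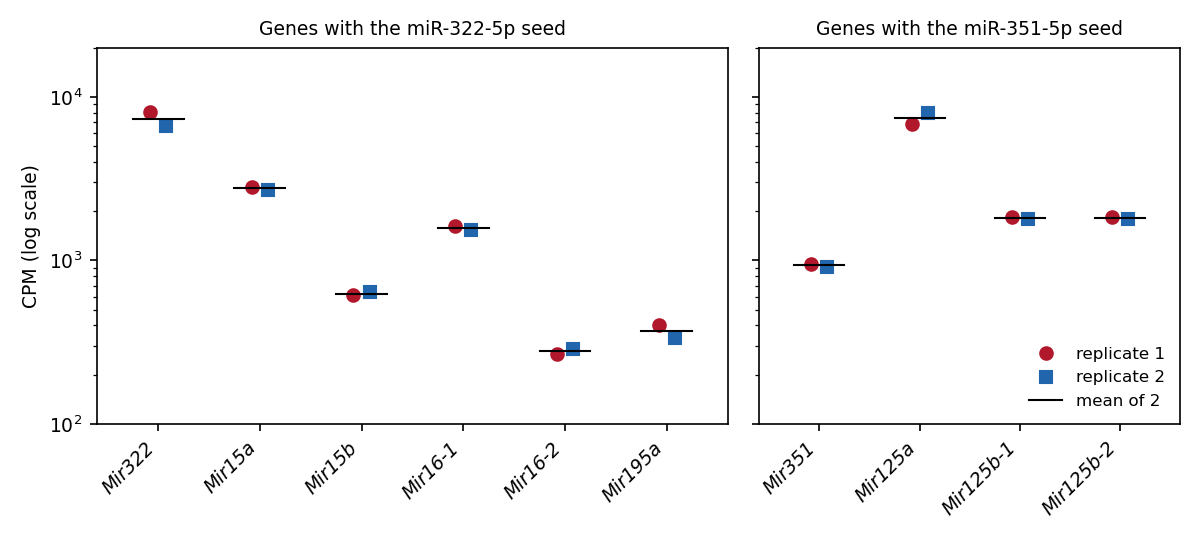
Level in CPM (log axis) of the genes whose mature sequence has the seed of miR-322-5p (left) or miR-351-5p (right), leaving out genes with 0 reads; circles are replicate 1, squares replicate 2 and lines the mean of the 2. Mir322, at 7365 CPM, stands above its 5 relatives with reads, and Mir351, at 933 CPM, below its 3. Reads that match both Mir16-1 and Mir16-2, or both Mir125b-1 and Mir125b-2, are in no gene's count. Each count covers both arms of the hairpin.

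The other mature sequences had few relatives. miR-450b-3p shares its seed with miR-450a-1-3p of the same cluster and with miR-6352, and miR-542-5p shares its seed with miR-6966-5p. Mir6352 had 0 reads in both replicates and Mir6966 had 2 in each. No other RefSeq mature sequence had the seed of miR-503-5p, miR-503-3p, miR-322-3p, miR-351-3p, miR-542-3p or miR-450b-5p.

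On chromosome X, 41 of 120 microRNA genes had at least 10 reads in both replicates. In reads assigned to 1 gene, Mir322 was the highest of them. It was followed by Mir98, a let-7 family gene, at 4953 ± 473 CPM and Mir652 at 4400 ± 280 CPM (SD, n = 2). The range of Mir322 over the pools, 6604 to 8126 CPM, did not overlap that of Mir98, 4618 to 5287 CPM. Mir351 was at rank 8, Mir542 at 25, Mir503 at 29 and Mir450b at 34. The 5 members held 26.4% of the reads of these 120 genes in replicate 1 and 23.4% in replicate 2. Per 100 nt of hairpin, Mir322 kept rank 1 on the chromosome. Sequence shared with other loci was checked on this chromosome for the cluster's genes alone, and reads placed at several loci are in no count. The other genes may thus be too low and the members' share too high, so these ranks are not settled.

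**Figure D3:**
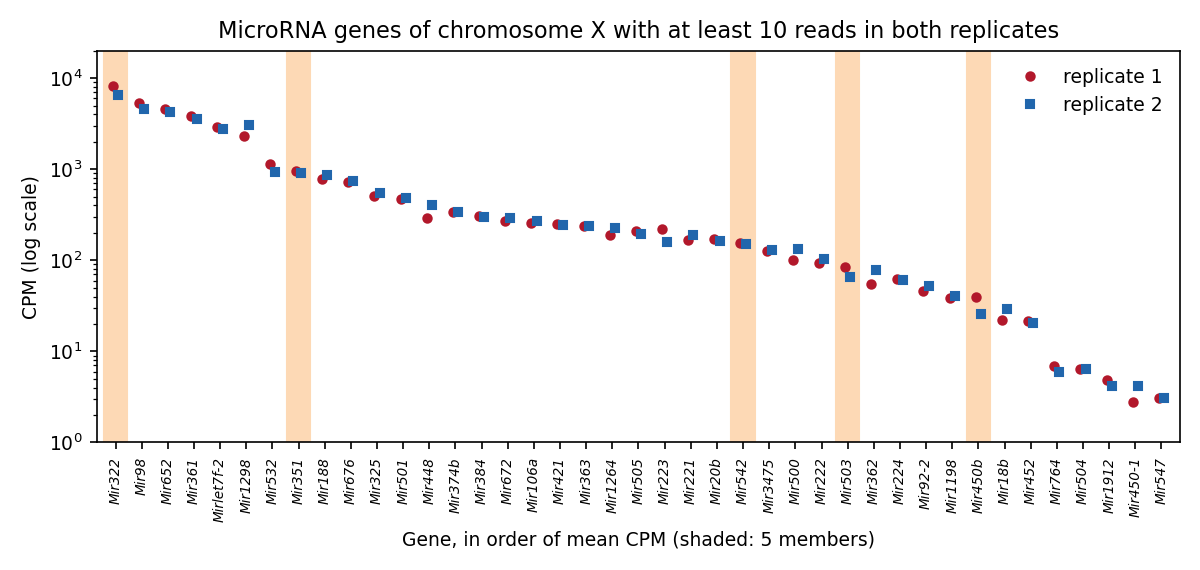
Level in CPM (log axis) of the 41 microRNA genes of chromosome X with at least 10 reads in both replicates, in order of mean level; circles are replicate 1, squares replicate 2, and the 5 members are shaded. The members run from rank 1 (Mir322, 7365 CPM) to rank 34 (Mir450b, 32.5 CPM). Reads placed at several loci are in no gene's count.

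The genes nearest to each member in level over the 2 libraries, by distance in log2(CPM + 1), came from other chromosomes. They were Mir135b and Mir93 for Mir322, Mir425 and Mir337 for Mir351, Mir331 and Mir148b for Mir542, Mir670 and Mir150 for Mir503, and Mir758 and Mir205 for Mir450b. The distances ranged from 0.056 for Mir425 to 0.22 for Mir93. With 2 libraries this measures likeness of level alone.

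The pools were compared gene by gene, as replicate 1 over replicate 2 after TMM scaling, with an exact two-sided binomial test and Benjamini-Hochberg adjustment over 426 genes. The test compares 2 libraries and covers counting error only. Of the 5 members 3 passed an adjusted p of 0.05, all higher in replicate 1. Over all genes tested 35.9% passed, with 20.7% higher and 15.3% lower in replicate 1, so a call by this test is common. The members' median log2 ratio was 0.32, against 0.015 over all genes tested.

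Mir322 had a log2 ratio of 0.32 (exact 95% interval 0.29 to 0.34; adjusted p = 1.1e-166 by the exact test), which is 1.24-fold higher in replicate 1. Of 61 genes with at least 10000 reads in both replicates, 4 differed by as much in either direction, Mir322 included. Of 271 genes with at least 100 reads in both, 40 did, and of all 426 genes tested 131 did. Mir503 had a log2 ratio of 0.36 (0.13 to 0.58; adjusted p = 0.0058 by the exact test), or 1.28-fold.

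Mir450b had the largest difference of the members, with a log2 ratio of 0.62 (0.27 to 0.97; adjusted p = 0.0018 by the exact test), or 1.53-fold. It rests on 154 and 125 reads. Of 271 genes with at least 100 reads in both replicates, 4 differed by as much, Mir450b included. Of all 426 genes tested, 64 did. The interval of Mir450b overlaps that of Mir503 and also that of Mir322.

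Mir351 and Mir542, which lie between these genes, did not pass. Mir351 had a log2 ratio of 0.066 (0.0023 to 0.13; adjusted p = 0.0987 by the exact test), and Mir542 one of 0.038 (-0.12 to 0.19; adjusted p = 0.773). Their intervals lie below that of Mir322. The ratio of Mir322 to Mir351, which needs no scaling between libraries, was 8.57 in replicate 1 (exact 95% interval 8.28 to 8.87) and 7.20 in replicate 2 (6.98 to 7.44), a difference beyond counting error. Mir450-1 had a log2 ratio of -0.55 (-1.76 to 0.58), on 11 and 20 reads. Among the seed relatives of Mir322, Mir195a was also higher in replicate 1, with a log2 ratio of 0.27 (0.17 to 0.37), and so were Mir16-1, at 0.091 (0.042 to 0.14), and Mir15a, at 0.087 (0.050 to 0.12). Mir15b, at -0.039 (-0.12 to 0.038), and Mir16-2, at -0.080 (-0.20 to 0.037), were not called.

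None of the 5 members was called by edgeR's exact test once a coefficient of variation of 0.1 between pools was assumed. Over all 426 genes tested it called 6, so the lack of a call is not particular to the members. The adjusted p by that test was 0.80 for Mir322 and for Mir503 and 0.48 for Mir450b, and 1 member had an unadjusted p under 0.05. With 1 library on each side, the spread of these genes between further pools cannot be estimated.

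**Figure D4:**
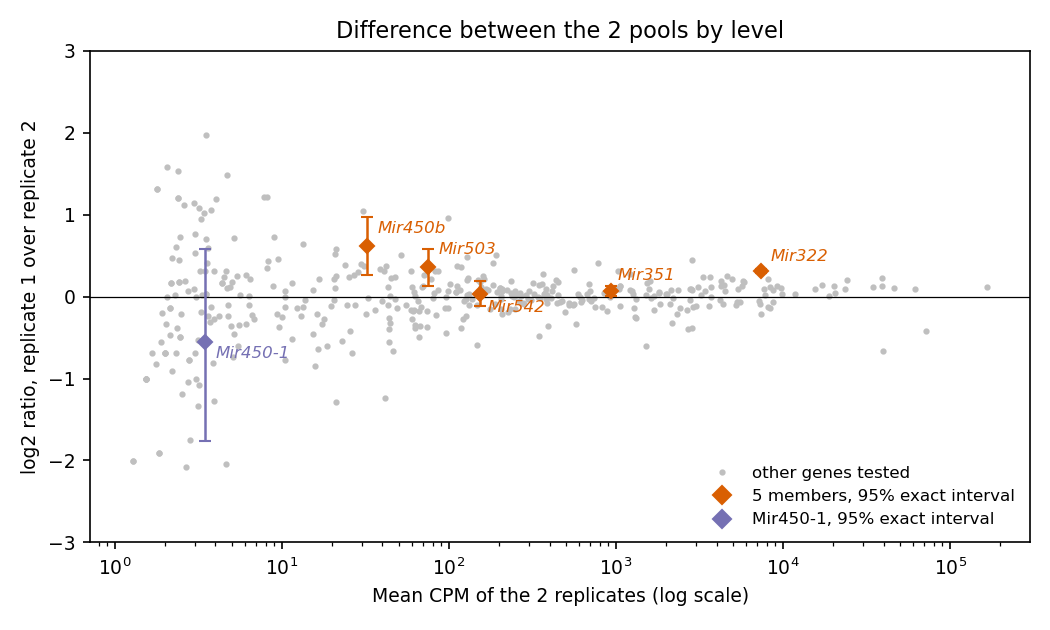
Log2 ratio of replicate 1 over replicate 2 (TMM scaling) against mean CPM (log axis) for 425 of the 426 genes tested, leaving out 1 gene with no read in replicate 1; the members are orange and Mir450-1 purple, with exact 95% intervals for counting error. Mir450b, Mir503 and Mir322 lie above 0 with their intervals, and Mir542 lies at 0.038.

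Marker genes of other cell types also differed between the pools, and their part in the members' ratios was not tested. Over all genes tested, 20.7% were called higher and 15.3% lower in replicate 1. The mesenchyme and smooth muscle list, with 6 of 6 genes measured and none at 0, summed to 6623 CPM in replicate 1 and 5913 CPM in replicate 2. Of its 5 tested genes, 3 were higher in replicate 1 past the threshold (Mir143, Mir199a-2 and Mir199b). Mir145a, at a log2 ratio of -0.011, and Mir214, at 0.077, were not called. Mir199a-1, with 2 reads in each replicate, was not tested. Sequence shared with other loci was not checked for this list or the endothelial and erythroid genes, so their levels may be too low. Endothelial Mir126a was at 25702 CPM in replicate 1 and 22600 CPM in replicate 2. Of the 4 erythroid symbols, Mir144 and Mir451a were found, and they summed to 173 CPM in replicate 1 and 125 CPM in replicate 2, each higher in replicate 1 past the threshold. The other symbols on that list, Mir486a and Mir486b, were not matched. The annotation has a gene under the symbol Mir486, which was looked up after the list's values were seen. Mir486 was at 29.5 CPM in replicate 1 and 34.5 CPM in replicate 2, with a log2 ratio of -0.21 (-0.57 to 0.14), and was not called.

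Striated muscle, where the roles of miR-322 and miR-503 were described, had 7 of 8 genes measured, and 4 of them, Mir133b, Mir133a-1, Mir133a-2 and Mir1a-1, were at 0 reads in both replicates. Mir133a-1 and Mir133a-2 share 31 nt, Mir133b shares 21 nt with each of them, and Mir1a-1 shares 28 nt with Mir1a-2. Reads within such a stretch go to no gene, so these zeros do not show that the microRNAs were absent. That list summed to 43.9 CPM in replicate 1 and 57.4 CPM in replicate 2, with a median log2 ratio of 0.16 over its 3 tested genes. Mir208b was lower in replicate 1 past the threshold, at -1.28, while Mir206, at 0.24, and Mir499, at 0.16, were not called. Of the 9 neural genes tested, Mir149 was higher in replicate 1 past the threshold, at 0.047, and 4 were lower (Mir9-3, Mir137, Mir128-1 and Mir128-2), with a median log2 ratio of -0.25. That median includes Mir9-2, Mir124a-1, Mir124a-2 and Mir124a-3, which had 6 to 21 reads in a replicate and share stretches with their copies. The list of microRNAs from the Hox clusters, which pattern the head-to-tail axis, had 6 of 6 genes measured and summed to 92090 CPM in replicate 1 and 132296 CPM in replicate 2. Of its 5 tested genes, 4 were lower in replicate 1 past the threshold. Sequence shared with other loci was not checked for this list, so its levels may be too low. Over all genes tested 15.3% were called lower and 20.7% higher.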

How the data were processed

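Small RNA libraries from 2 pools of mouse embryonic hindbrain were analysed, with an RNA size range below 30 per the labels (unit not given). The authors deposited 1 table of raw read counts per library, built on mm10 and GENCODE M4 according to the deposited notes. Aligner, trimming and counter: not given in the sources used here. All 1973 gene rows hold 3 counts: both strands, and each strand alone. Of the single-strand columns, the fuller one was read as the own strand. The 4 rows that name no gene (reads unmapped, 13.7% and 15.8% of all reads in replicates 1 and 2, at several loci, outside genes, 2.56% and 2.96%, or ambiguous) were left out of library sizes.

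Names and positions came from GENCODE M21 (same build, 1894 identifiers matched) and sequences from RefSeq GRCm38.p6. Scaling used TMM in edgeR 4.0.16 (R 4.3.3) on genes reaching 10 reads in 1 library or both. The exact binomial test and Clopper-Pearson intervals used scipy 1.17.1, and folding used ViennaRNA 2.7.2. The binomial test was checked on simulated counts that held counting error only, which does not cover variation between pools. A count of 0 allows up to 3 reads. Genes were named by rule: the members, microRNA genes within 10 kb, seed relatives, the 2 nearest in level, the 3 highest on chromosome X and marker lists. Members and lists were chosen with earlier results of these data known. Alternatives were DESeq2 1.42.0 size factors, library totals, other count minimums, both strands, all reads as denominator, division by length, single replicates and an assumed variation.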

Additional observations from a re-analysis of the deposited data

How the results depend on the processing

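No paired analysis was possible because there is 1 group. No ratio between the pools exists without either replicate. Under DESeq2 size factors, library totals, both strands, or a minimum of 1 or 50 reads, the 5 members kept the sign of their ratio, and Mir322, Mir503 and Mir450b stayed past the threshold of the exact binomial test, with log2 ratios of 0.28 to 0.32, 0.33 to 0.36 and 0.58 to 0.62. Mir542 was at 0.0064 with the minimum of 1 read. At a coefficient of variation of 0.1 or 0.2, edgeR's exact test called 0 members (log2 ratios 0.32, 0.36 and 0.61), against 3, with 1 member at an unadjusted p under 0.05 for 0.1 and 0 for 0.2. Over all genes it called 6 and 0, against 153, with 12 genes at an unadjusted p under 0.05 for 0.2.

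With all reads of the library as denominator the means were 3442 CPM for Mir322, 35.1 for Mir503, 435 for Mir351, 71.8 for Mir542 and 15.2 for Mir450b, and the members' share was 0.40%. Per 100 nt of hairpin Mir503 was at 105.9 and Mir542 at 180.9 CPM, and with both strands counted Mir542 was at 150.5 CPM. In single replicates Mir322 ranged from 6604 to 8126 CPM, Mir503 from 66.3 to 84.1, Mir351 from 917 to 948, Mir542 from 152.7 to 154.9, Mir450b from 25.8 to 39.1, and the members' share from 0.777% to 0.935%. Mir450-1 and Mir450-2 rest on 6 to 20 reads, and reads that match both are in neither count.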

Other observations

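Leadership of a cluster by 1 gene was set beside other clusters, a comparison chosen after the members' values were seen. With gaps of up to 10 kb on 1 strand, 14 clusters held at least 3 genes with 10 or more reads in both replicates. Mir322 held 86.8% of the reads of its 7 genes in replicate 1 and 85.0% in replicate 2, the third highest leading share in each. Higher shares were those of Mir23a, at 97.4% in replicate 1 and 98.0% in replicate 2, and Mir1264, at 94.1% and 95.4%. Mir17, at 63.9% and 63.0%, came next below. These shares were not corrected for sequence shared between loci, and no test was made.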
